A study of Mus musculus with 2 samples.

Results

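Small nucleolar RNAs (snoRNAs) and small Cajal body RNAs were followed in alveolar macrophages, which live on the air side of the lung and clear surfactant and particles. Members were all genes with a platform symbol starting with Snord, Snora or Scarna, plus Rnu3a and Rnu3b, on array features that carry 1 symbol; a gene with 2 features was read from the one with the higher mean signal. This gave 79 genes on 82 features, out of 33793 features in all: 48 of the C/D box class (Snord and Rnu3a), 26 of the H/ACA box class (Snora) and 5 Scarna genes. Rnu3b had no feature with 1 symbol. One array is labelled Lysm-Cre Ssu72fl/fl, from mice with both copies of Ssu72 flanked by recombination sites and with Cre driven in myeloid cells by the lysozyme locus that gives Lysm its name. The other is labelled Lysm-Cre and carries the Cre alone, so Cre is common to both. All mice were 8 to 10 weeks old, and the cells were taken by flow sorting from lungs. Each genotype had 1 array, and how many mice were pooled for it is not stated in the labels. With no replicates there is no test between genotypes, and every value below is a description of these 2 arrays whose precision is limited by their number. The targeted gene did not check the label: Ssu72 had a log2 value of 4.998 on the array labelled Ssu72fl/fl and 4.86 on the Lysm-Cre array, a difference of 0.14 where the scatter between features of similar signal was also 0.14. The labels do not say where its probes lie relative to the deleted exons.

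C/D box RNAs bind fibrillarin and guide 2′-O-methylation, H/ACA box RNAs bind dyskerin and guide pseudouridylation, and a few of either class take part in the cleavage of ribosomal RNA precursors. Small Cajal body RNAs guide the same modifications on spliceosomal RNAs. In mammals most of these RNAs are cut out of the introns of other genes, while a few, among them U3, have promoters of their own. Ssu72 removes phosphate from the tail of the largest RNA polymerase II subunit, and in budding yeast it is known for its part in ending transcription of independently transcribed snoRNA genes.

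The reference sequence of most members was not used here, but 2 H/ACA members overlap annotated microRNA hairpins. Those hairpins are printed below for the bases they share with the members, and they are not whole H/ACA genes. They are RefSeq sequences of GRCm38.p6, printed 5′ to 3′ as RNA with the bases inside the snoRNA gene in capitals. The first is shown because Snora19 was the only compared member that was higher on the array labelled Ssu72fl/fl. All 56 annotated bases of Snora19 lie inside the hairpin of Mir3084-2 (chr19:60774329-60774397, minus strand), and they hold the letters ACA exactly 3 bases before their end, the usual place of an ACA box.
Mir3084-2: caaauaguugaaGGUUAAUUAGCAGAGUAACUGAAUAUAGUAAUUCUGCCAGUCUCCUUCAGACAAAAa
The second hairpin, Mir1291 (chr15:98519762-98519878, minus strand), shares 73 bases with the 118 of Snora34, an H/ACA member with a difference of -0.36.
Mir1291: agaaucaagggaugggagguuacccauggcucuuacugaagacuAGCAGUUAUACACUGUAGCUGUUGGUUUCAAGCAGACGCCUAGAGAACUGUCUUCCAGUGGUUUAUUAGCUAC
The gene table gives no strand for the snoRNA genes, so the strand is that of the hairpin. A feature over such a locus cannot tell the snoRNA, the microRNA precursor and the unspliced host transcript apart. The annotated genes are short, from 48 to 248 bases with a median of 83, and lie on 20 chromosomes with at most 9 on 1 of them. Across the 76 compared members, gene length and difference were weakly related (Pearson r = -0.15, Spearman rho = -0.14, genes of the same 2 arrays).

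Levels are the deposited log2 values, a difference is the array labelled Ssu72fl/fl minus the Lysm-Cre array, and "lower" and "higher" refer to the array labelled Ssu72fl/fl. Values under 4.652, the 50th percentile of all values and here called the floor, were set to it before a difference was taken. Of the 79 members, 74 were above the floor on both arrays, 2 on the Lysm-Cre array alone (Snord43 and Snord52, whose differences are bounds) and 3 on neither (Snord19, Snord37 and Snord91a). Members mostly gave strong signals: 78.5% had a mean level over 6, against 5.27% of all features. Signals of different features depend on their probes and are not abundances, so levels are used here to match features and not to rank RNAs.

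Nearly every compared member was lower on the array labelled Ssu72fl/fl. Of 76, 75 were lower and 1 was higher, where 53.4% of all compared features were lower. The median difference was -0.37 (lower quartile -0.57, upper quartile -0.22), against -0.011 for all 18457 compared features. The shift was modest in most genes: 3 members were at least 2-fold lower (background 0.423% of compared features), 17 were at least 1.5-fold lower (background 3.2%), while 0 were 2-fold higher (background 0.065%) and 0 were 1.5-fold higher (background 0.542%). At mean levels of 6 or more, where 4.1% of features were 2-fold lower and 24.6% were 1.5-fold lower, the counts among 62 members were 3 and 16. The share of lower members depended on the scaling: after quantile normalization 47 members were lower and 27 higher, so that 35.5% of the compared members were higher, against 1.32% as deposited. The share of all compared features that was higher was 50.5% after that normalization and 46.6% as deposited.

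**Figure D1:**
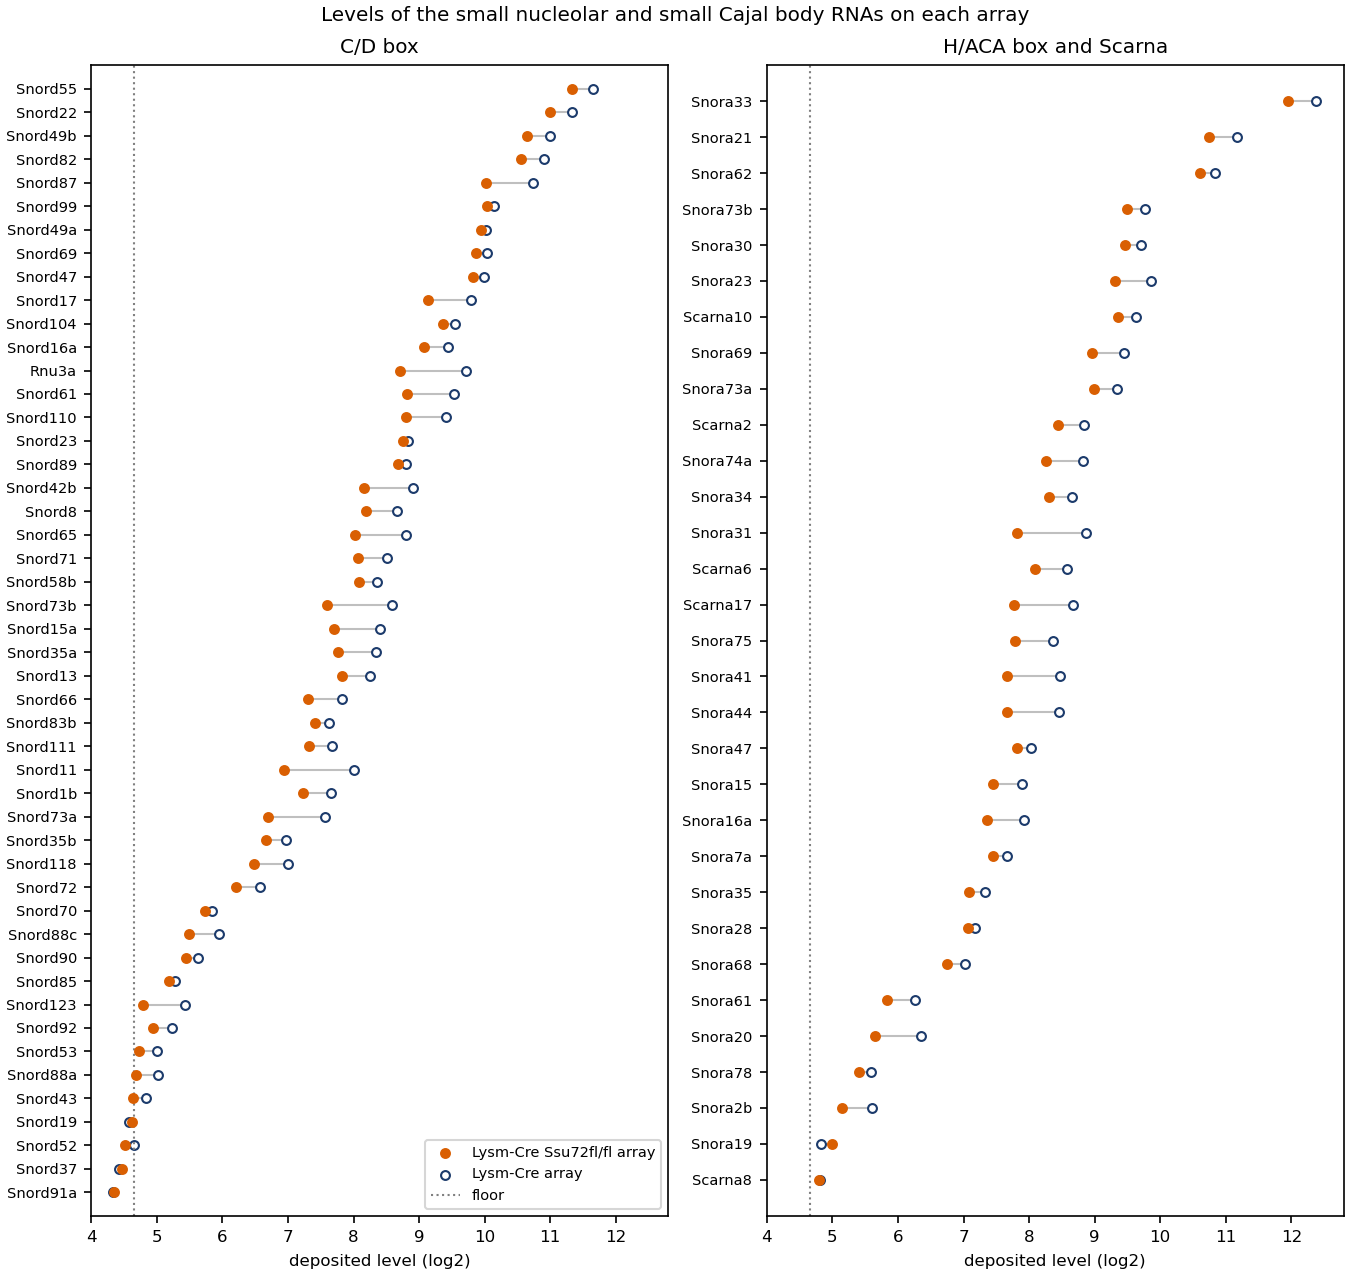
Deposited log2 levels (horizontal axis) of each member (rows, ordered by mean level), with filled points for the array labelled Lysm-Cre Ssu72fl/fl, open points for the Lysm-Cre array and a dotted line at the floor of 4.652. The filled point lies left of the open one in 75 of 79 rows, and the gap is widest for Snord11, Snora31 and Rnu3a.

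Differences between the arrays varied with level across all features. Non-member features, which include those naming a snoRNA beside another symbol, were therefore used for matching. Each member was set against the 200 of them nearest to it in mean level. Its relative difference is its own difference, before the floor, minus the median of those features, and their robust SD (scaled median absolute deviation) gives the scatter between features there, not between animals. Relative differences were small as a group, with a median of -0.050 over all compared members, 42 lower and 34 higher. The similar-signal features had a median difference of -0.44 at the typical member, and on average 79.2% of them were lower. For 53 of the 76 members the relative difference was within 1 robust SD, 5 lay more than 2 robust SD below (Snora31, Snord123, Snord43, Snord53 and Snord88a) and 0 more than 2 above. These 5 are 6.58% of the members, where on average 4.57% of the similar-signal features lay as far below and 6.39% as far above. Snord43 passes only with its value below the floor, and with floored differences the count was 4. At mean levels of 6 or more, all 62 members were lower, where 78.3% of the features there were lower, and their relative median was 0.018, with 30 lower and 32 higher.

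**Figure D2:**
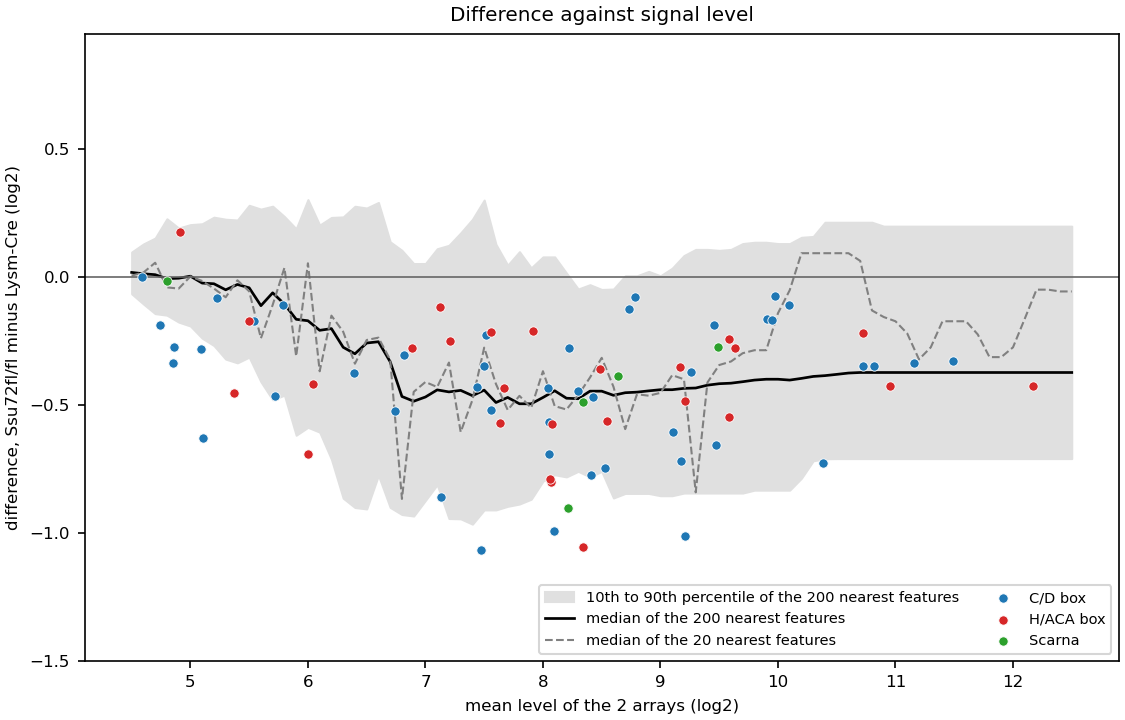
Difference (vertical axis, log2) against the mean level of both arrays (horizontal axis, log2) for the 76 compared members, coloured by class. The black line is the median of the 200 nearest other features, the grey band their 10th to 90th percentile and the dashed line the median of the 20 nearest; most members lie inside the band, and those below a level of 6 lie mostly under the line.

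The position of members relative to other features varied with level, in bands chosen after the values were seen. At mean levels from 4 to 6, 13 of 14 members were lower and the relative median was -0.18 (12 lower, 2 higher). The 16661 other features there had a median of -0.0020. Snord43 and Snord52, both among the lower members of this band, were above the floor on the Lysm-Cre array alone, so these counts depend in part on the floor rule. From 6 to 8 the median difference of 18 members was -0.40, against -0.31 for 1461 other features, with a relative median of 0.032. From 8 to 10 it was -0.48 for 35 members and -0.45 for 189 other features, with a relative median of -0.024. Over a level of 10, 9 members had a median of -0.35, against -0.062 for 67 other features and -0.37 for the 13 protein-coding ones among them. The 200 nearest features are a coarse match at the top, reaching from 8.465 to 13.452 for Snora33. With the 20 nearest, all 9 members over 10 were relatively lower, with a median of -0.22, whereas with 200 they had a median of 0.025.

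**Figure D3:**
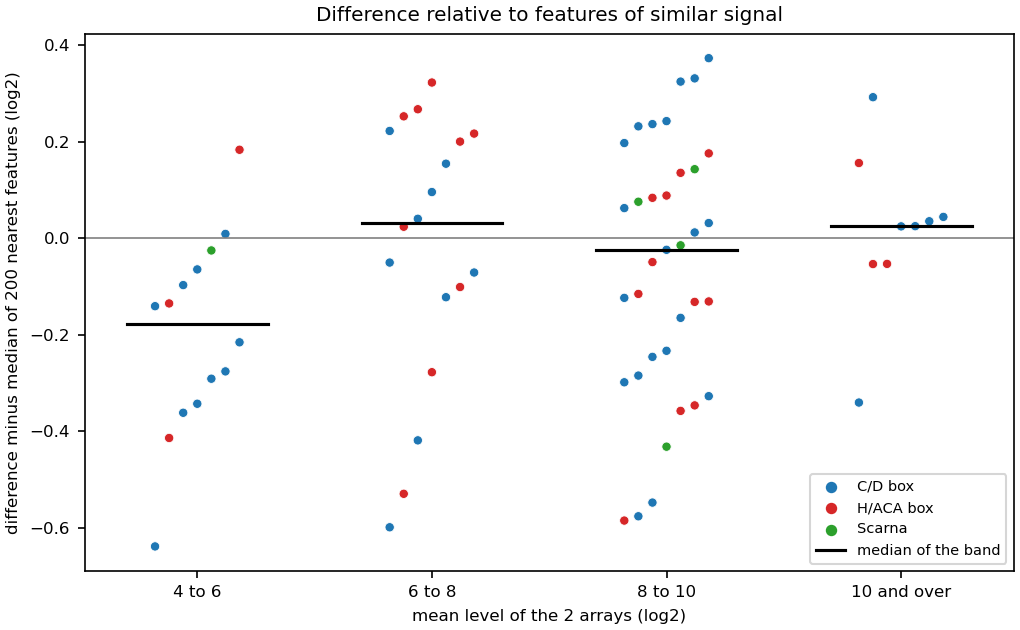
Relative difference (vertical axis, log2) of the 76 compared members by band of mean level (horizontal axis, log2), coloured by class, with the median of each band as a bar. The bar lies at -0.18 in the lowest band and between -0.024 and 0.032 in the other bands.

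All 45 compared C/D box members were lower, with a median of -0.35 (relative -0.065, 25 lower and 20 higher). U3, encoded by Rnu3a, pairs with the ribosomal RNA precursor and is needed, as shown in yeast and frog oocytes, for the cleavages that release the small-subunit RNA. Rnu3a read 8.70 on the array labelled Ssu72fl/fl and 9.71 on the Lysm-Cre array, a difference of -1.01 and a relative difference of -0.58 against a robust SD of 0.30. U8, encoded by Snord118 and needed in frog oocytes for large-subunit RNA maturation, read 6.475 on the array labelled Ssu72fl/fl and 7.001 on the Lysm-Cre array (-0.53, relative -0.12 against a robust SD of 0.48). Both were lower, U3 by 1.93 robust SD more than its similar-signal median and U8 by 0.25. Snord13, which guides acetylation of the small-subunit RNA, read 7.83 and 8.26 in the same order (-0.43, relative 0.012). Snord22 (U22), needed for small-subunit processing in frog oocytes, read 10.99 on the array labelled Ssu72fl/fl and 11.33 on the Lysm-Cre array (-0.34, relative 0.035).

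The lowest C/D member was Snord11, which lies inside Nop58, the gene of a core protein of C/D box particles. It read 6.94 on the array labelled Ssu72fl/fl and 8.005 on the Lysm-Cre array, 2.10-fold lower (-1.07, relative -0.60 against a robust SD of 0.33). Snord70, in the same gene, read 5.74 on the array labelled Ssu72fl/fl and 5.85 on the Lysm-Cre array (-0.11, relative 0.0090). The Nop58 feature itself was at 4.751 and 4.995 in that order (-0.24), so RNAs from 1 host locus differed by different amounts. Snord73b and Snord73a, both inside the ribosomal protein gene Rps3a1, were lower together, with differences of -0.99 (7.60 on the array labelled Ssu72fl/fl and 8.59 on the Lysm-Cre array) and -0.86 (6.70 and 7.56 in the same order). Their relative differences were -0.55 and -0.42, with robust SDs of 0.30 for both.

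Other low C/D members came from several hosts. Snord65, inside the non-coding gene 2410006H16Rik, read 8.03 on the array labelled Ssu72fl/fl and 8.80 on the Lysm-Cre array (-0.77, relative -0.33). Snord42b, inside Rpl23a, read 8.16 and 8.90 in that order (-0.74, relative -0.30), Snord87, inside Snhg6, 10.02 and 10.74 (-0.73, relative -0.34), and Snord61, inside Rbmx, 8.82 and 9.54 (-0.72, relative -0.28). Snord87 stood further from its closest features, at -0.82 relative to the 20 nearest. For the other 3 that value was between -0.38 and -0.32.

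At low signal, 10 C/D members with a mean level under 6 had a relative median of -0.25, and 9 of the 10 were relatively lower. That count depends in part on the floor rule. Snord43 and Snord52 were compared only through the Lysm-Cre array, and both counted as relatively lower. For Snord52 the difference was -0.13 before the floor and -0.0022 after it. The members left out by the floor had relative differences of 0.044 (Snord19), 0.044 (Snord37) and -0.0026 (Snord91a). Snord123, which lies inside Snhg18, read 4.79 on the array labelled Ssu72fl/fl and 5.42 on the Lysm-Cre array (-0.63, relative -0.64 against a robust SD of 0.16), and 0.5% of its 200 similar-signal features lay below it. Snord88c read 5.48 and 5.95 in the same order (-0.47, relative -0.36) and Snord88a 4.685 and 5.019 (-0.33, relative -0.34 against a robust SD of 0.15). Both lie inside 2410002F23Rik, whose own feature read 5.01 on the array labelled Ssu72fl/fl and 4.97 on the Lysm-Cre array (0.042). Snord53 (4.72 on the array labelled Ssu72fl/fl and 4.996 on the Lysm-Cre array) and Snord92 (4.95 and 5.23 in that order) are both inside Wdr43, had differences of -0.28 each, and their host was at -0.26. Snord123, Snord88a and Snord53 lay close to the floor on the array labelled Ssu72fl/fl, and Snhg18, the host of Snord123, was below it on both arrays. Snord43, inside Rpl3, was below the floor there and at 4.84 on the Lysm-Cre array, so its -0.19 is a bound (relative -0.22 against a robust SD of 0.10).

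The C/D members nearest to no difference included strong signals. Snord49a read 9.94 on the array labelled Ssu72fl/fl and 10.015 on the Lysm-Cre array (-0.075, relative 0.32 against a robust SD of 0.34). Snord23, inside Nop53, read 8.75 and 8.83 in that order (-0.077, relative 0.37 against 0.28), the highest relative value of any member, while Nop53 itself was at -0.50. Snord89 (8.67 on the array labelled Ssu72fl/fl and 8.80 on the Lysm-Cre array, relative 0.33) and Snord99 (10.04 and 10.15 in that order, relative 0.29) also lay above their similar-signal medians. Snord85 read 5.19 on the array labelled Ssu72fl/fl and 5.27 on the Lysm-Cre array (-0.083, relative -0.065). Strong C/D signals spanned a range of differences, from the -0.73 of Snord87 to the -0.075 of Snord49a. Between these, Snord55 read 11.33 on the array labelled Ssu72fl/fl and 11.65 on the Lysm-Cre array (-0.33), Snord49b 10.645 and 10.994 in that order (-0.35), and Snord82 10.55 and 10.90 (-0.35).

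Of 26 H/ACA box members, 25 were lower and 1 was higher; the median was -0.42 (relative -0.051, 14 lower and 12 higher); relative to protein-coding features of similar signal the median was 0.028, so its direction turned. Snora31 was the lowest: it read 7.82 on the array labelled Ssu72fl/fl and 8.87 on the Lysm-Cre array, 2.08-fold lower (-1.05, relative -0.59 against a robust SD of 0.25), and 2.0% of its similar-signal features lay below it. It lies inside Tpt1, the translationally controlled tumour protein gene, which was at 7.01 on the array labelled Ssu72fl/fl and 7.34 on the Lysm-Cre array (-0.34). Snora41, inside the elongation factor gene Eef1b2, read 7.66 and 8.47 in that order (-0.80, relative -0.36), and its host was lower too (-0.61). Snora44 read 7.67 on the array labelled Ssu72fl/fl and 8.46 on the Lysm-Cre array (-0.79, relative -0.35).

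At lower signal, Snora20, inside the chaperonin gene Tcp1, read 5.66 on the array labelled Ssu72fl/fl and 6.35 on the Lysm-Cre array (-0.69, relative -0.53 against a robust SD of 0.36). Snora2b, inside Kansl2, read 5.15 and 5.60 in that order (-0.45, relative -0.41 against 0.22). The Kansl2 feature did not share the shift (0.032), and Snora34 in the same gene was at 8.30 on the array labelled Ssu72fl/fl and 8.66 on the Lysm-Cre array (-0.36, relative 0.089). Snora73a and Snora73b (U17), whose yeast counterpart acts in small-subunit RNA processing, lie together in Snhg3. Snora73a read 8.99 on the array labelled Ssu72fl/fl and 9.34 on the Lysm-Cre array (-0.35), and Snora73b read 9.49 and 9.77 in that order (-0.28), with relative differences of 0.084 and 0.14.

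The 3 H/ACA members with the strongest signals were all lower. Snora33, inside Rps12, read 11.95 on the array labelled Ssu72fl/fl and 12.38 on the Lysm-Cre array (-0.43), and its second, weaker feature read 6.05 and 6.74 in that order (-0.69). Snora21, inside Rpl23, read 10.74 and 11.17 (-0.43), and Snora62, inside Rpsa, 10.61 and 10.83 (-0.22). Snora28, inside the initiation factor gene Eif5, was nearer to no difference, with 7.06 on the array labelled Ssu72fl/fl and 7.18 on the Lysm-Cre array (-0.12, relative 0.32 against a robust SD of 0.30). Snora35 lies inside Htr2c, a serotonin receptor gene of the nervous system. It read 7.08 on the array labelled Ssu72fl/fl and 7.33 on the Lysm-Cre array (-0.25, relative 0.20), while the Htr2c feature was below the floor on both arrays.

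Snora19, whose sequence is printed above, read 4.995 on the array labelled Ssu72fl/fl and 4.82 on the Lysm-Cre array, a difference of 0.17 (relative 0.18 against a robust SD of 0.12). Its 2 features hold identical values and count once. The gene around it, Eif3a, which encodes a subunit of an initiation factor, had the opposite sign, with 5.73 on the array labelled Ssu72fl/fl and 6.33 on the Lysm-Cre array (-0.60). Both Snora19 levels were low signals, in the band from 4 to 6.

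All 5 Scarna members were lower, with a median of -0.39 (relative -0.015). Scarna17 was the lowest, at 7.76 on the array labelled Ssu72fl/fl and 8.67 on the Lysm-Cre array (-0.90, relative -0.43 against a robust SD of 0.29). Its second feature gave nearly the same difference, with 7.26 on the array labelled Ssu72fl/fl and 8.17 on the Lysm-Cre array (-0.90). Scarna6 read 8.10 and 8.58 in that order (-0.49, relative -0.015). Scarna2, which in human cells guides methylation of the U2 spliceosomal RNA, read 8.44 on the array labelled Ssu72fl/fl and 8.83 on the Lysm-Cre array (-0.39, relative 0.076). Scarna10, the human counterpart of which guides modification of the U5 spliceosomal RNA, read 9.35 on the array labelled Ssu72fl/fl and 9.62 on the Lysm-Cre array (-0.27, relative 0.14). Scarna8 was near the floor on both, with 4.795 on the array labelled Ssu72fl/fl and 4.81 on the Lysm-Cre array (-0.018). The other 4 thus lay between -0.49 and -0.018.

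Most members sit inside another gene. In the RefSeq gene table of GRCm38.p6, 74 of the 79 lay within the span of a protein-coding or long non-coding gene, of which there were 60, with strand not checked. Medians were similar across kinds of host, a split chosen after the values were seen. The median was -0.36 for 52 compared members inside protein-coding genes, -0.35 for 19 inside long non-coding genes and -0.43 for the 5 with no containing gene (Rnu3a, Scarna2, Snord118, Snord13 and Snord89). Relative medians were -0.050, -0.10 and 0.012 in the same order of host kinds. The 18 compared members inside ribosomal protein genes had a median of -0.37 (relative -0.051), and the 53 inside other genes one of -0.35 (relative -0.050).

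Host genes were lower less steeply than the RNAs inside them on the deposited scale. Of 39 hosts with a compared feature, 32 were lower and 7 higher (median -0.23). The 48 members inside them had a median of -0.36; 37 were below their host and 11 above it. With similar-signal medians removed from both, the median of member minus host was 0.025. Member and host differences were nearly unrelated across the 48 members, which share the arrays and in part the hosts (Pearson r = 0.089, Spearman rho = 0.15; for relative differences r = -0.11). A further 12 compared members had hosts below the floor on both arrays, Snhg12 and Snhg3 among them, so their hosts gave no difference to compare.

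**Figure D4:**
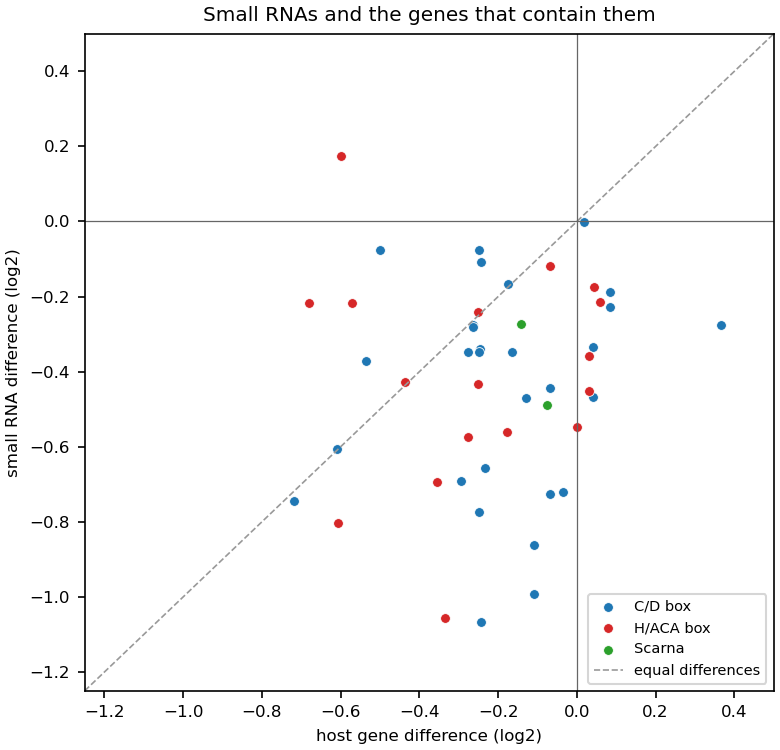
Difference of each small RNA (vertical axis, log2) against that of the gene that contains it (horizontal axis, log2) for 48 members with a compared host, coloured by class, with the line of equal differences dashed. Of the points, 37 lie below the line, and Snora19 is the single one above 0.

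Gaps between RNAs of 1 host varied, and with 1 array per genotype an effect of the host cannot be told apart from scatter between features. Over 17 pairs within 10 hosts, the median gap between differences was 0.23, against 0.25 over all pairs of compared members, and 0.30 against 0.25 for relative differences. Of these pairs, 9 come from Snhg12 and 2410006H16Rik, and the 8 pairs of the other 8 hosts had a median gap of 0.11 (0.14 for relative differences). Those 8 gaps were widely spread, from 0.0062 in Wdr43 to 0.96 in Nop58, the largest of all 17. For relative differences they ran from 0.015 in Wdr43 to 0.61 in Nop58. Snhg12 holds 4 compared members, with differences of -0.79 for Snora44, -0.57 for Snora16a, -0.42 for Snora61 and -0.11 for Snord99. The non-coding gene 2410006H16Rik holds 3, at -0.77 for Snord65, -0.35 for Snord49b and -0.075 for Snord49a, and its own feature was at 5.42 on the array labelled Ssu72fl/fl and 5.66 on the Lysm-Cre array (-0.25). These hosts, which hold 3 or more compared members, are shown by their RefSeq promoters in GRCm38.p6. RNAs of 1 host are taken here to share its annotated start, which was not tested. Each line runs 5′ to 3′ on the plus strand from 30 bases before the annotated start to 20 after it, at chr4:132308648-132308697 for Snhg12 and chr11:62602847-62602896 for 2410006H16Rik, and capitals mark the unbroken run of C and T across the start.
Snhg12: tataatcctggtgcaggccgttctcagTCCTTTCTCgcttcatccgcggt
2410006H16Rik: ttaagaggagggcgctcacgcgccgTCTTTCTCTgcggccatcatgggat
Each run is 9 bases long but begins before the annotated start. From that start onward it reads TTTCTC in Snhg12 and CTCT in 2410006H16Rik. A pyrimidine tract at the 5′ end of the transcript itself is the known mark of terminal oligopyrimidine transcripts. Ribosomal protein mRNAs and many snoRNA hosts belong to that class. Whether these 9-base runs make either host a member of it was not tested. A run of at least 5 across the annotated start was looked for on the gene's strand alone, using the first listed start of each gene. It was found in 7 of 47 hosts with a promoter in the table (14.9%), against 9.95% of 27025 genes. Among other hosts with 2 or more compared members, Ncl and Rps3a1 had a run of 1 base. Rps3a1 is a ribosomal protein gene, so the rule can miss genes of the terminal oligopyrimidine class. A short run or none does not place a host outside that class, and the shares count only runs at the annotated start. Nop58, Kansl2, Snhg3, Wdr43 and 2410002F23Rik had a run of 0. No run is given for Rpl3, which also holds 2 compared members.

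Genes of the proteins that form and process the particles are given with both medians, since their levels differ from those of the members. Of 4 compared core proteins of C/D box particles, 4 were lower with a median of -0.14 (relative -0.072). Nop56 read 8.64 on the array labelled Ssu72fl/fl and 9.25 on the Lysm-Cre array (-0.61, relative -0.17), and Nop58 was at -0.24 (relative -0.26). Both genes also contain members. Snu13 and Rrp9 were at -0.035 and -0.034, with relative differences of 0.052 and 0.024. Fbl, the gene of fibrillarin, had no feature with 1 symbol and was not read. The 4 compared H/ACA core proteins split into 1 lower and 3 higher (median 0.076, relative 0.17): Nhp2 was at 0.18, Gar1 at 0.091, Nop10 at 0.060 and Naf1 at -0.027, a bound. Dkc1, the gene of the pseudouridine synthase dyskerin, and Shq1 were below the floor on both arrays. Of 11 compared assembly and Cajal body factors, 6 were lower and 5 higher (median -0.0057, relative -0.022), from Ncbp1 (-0.13), Tcof1 (-0.091) and Pih1d1 (-0.075) to Coil (0.13), the gene of the Cajal body protein coilin, Wrap53 (0.20), which brings RNAs to Cajal bodies, and Ruvbl2 (0.23). Of 14 genes for release and 3′ trimming, 7 were lower and 7 higher (median -0.033, relative -0.017), from the exosome genes Exosc10 (-0.31), Exosc1 (-0.26) and Exosc2 (-0.20) to Exosc8 (0.082), Dis3 (0.10) and Exosc9 (0.12).

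The U3 processome, the assembly in which U3 works, had 16 of 22 compared proteins lower and 6 higher, with a median of -0.056 (relative -0.059). Its ends were Dcaf13 (-0.37), Wdr43 (-0.26) and Imp4 (-0.25), and Wdr46 (0.15), Pdcd11 (0.084) and Noc4l (0.081). The non-coding host transcripts had 9 of 11 lower and 2 higher (median -0.11, relative -0.12), from Snhg17 (-0.57), Snhg20 (-0.50) and Snhg1 (-0.25, a bound) to Snhg15 (-0.029), Snhg9 (0.043) and Snhg11 (0.48). The deposited median of each of these lists was nearer to 0 than the -0.37 of the members. On the level-matched scale the host transcripts lay below the -0.050 of the members, at -0.12. The C/D core proteins (-0.072) and the U3 processome (-0.059) lay only slightly below it. The member median was itself -0.072 with the 20 nearest features, a setting at which these lists were not read. Their order beside the members is therefore not settled.

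Other stable small RNAs were split in direction. Among 7 above the floor, 3 were lower and 4 higher (median 0.032, relative 0.45 with the 200 nearest features and 0.034 with the 20 nearest), and 2 more were below the floor on both arrays. Rn7sk, the RNA that holds back the elongation kinase, read 13.17 on the array labelled Ssu72fl/fl and 13.09 on the Lysm-Cre array (0.082). Rpph1, the RNA of RNase P, read 12.33 and 12.25 in that order (0.072, relative 0.45 with the 200 nearest and 0.12 with the 20 nearest). Rny1, a Y RNA, read 8.33 and 8.23 (0.10, relative 0.58 and 0.63), and Rnu12, a minor spliceosomal RNA, 9.37 and 9.34 (0.032). Rnu11, also of the minor spliceosome, was lower, at 9.25 on the array labelled Ssu72fl/fl and 9.71 on the Lysm-Cre array (-0.46, relative -0.041), as was Rny3 (5.18 and 5.63 in that order, -0.45). Terc, the telomerase RNA, which has an H/ACA domain, read 4.77 on the array labelled Ssu72fl/fl and 4.83 on the Lysm-Cre array (-0.062). Rn7sk, Rpph1 and the Y RNAs are made by RNA polymerase III.

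MicroRNA genes, the other large set of short RNA genes on the array, were also split. Of 62 snoRNA and Scarna members at mean levels of 6 or more, 62 were lower, with a median of -0.43, while of 41 microRNA genes at such levels, 26 were lower and 15 higher (median -0.13), beside 78.3% lower among all features there. The sets differ in level, with median levels of 8.13 and 8.73 for the members and 6.66 and 6.84 for the microRNA genes on the arrays labelled Ssu72fl/fl and Lysm-Cre. Relative to the 200 nearest features the median was 0.018 for the members and 0.24 for the microRNA genes, of which 11 were lower and 30 higher. The difference between these sets was not tested. Whether mature RNA or host precursor was read was not tested for either set.

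Markers of cell types were read in the same way. Of 14 alveolar macrophage markers, all above the floor, 13 were lower and 1 higher (median -0.31, relative 0.066, summed level of those above the floor 94.8 on the array labelled Ssu72fl/fl and 99.0 on the Lysm-Cre array). Type 2 epithelial markers were lower in 5 of 6 (median -0.25, relative -0.11, sums 34.8 and 36.1 in that order) and monocyte markers in 4 of 4 (median -0.34, relative -0.33, sums 20.3 and 21.7), so that monocyte markers were also low for their level. Lower, too, were 4 of 4 neutrophil (-0.076, relative -0.084, 19.3 and 19.7), 2 of 2 dendritic cell (-0.067, relative -0.042, 10.17 and 10.30) and 3 of 3 endothelial markers (-0.073, relative -0.059, 15.5 and 16.1). T cell markers (1 of 3 lower, median 0.24, which is the bound of Cd3d, relative 0.25, 15.4 and 14.4) and B cell markers (2 of 3 lower, -0.018, relative -0.028, 16.8 and 17.3) did not share one direction, and Cd3e, Cd3g, Ms4a1, Cxcr2, Ly6g, Xcr1 and Zbtb46 were below the floor on both arrays. Of the T cell markers, Lat read 5.56 on the array labelled Ssu72fl/fl and 4.87 on the Lysm-Cre array (0.68, relative 0.72 against a robust SD of 0.23), and Cd8a was at -0.014. The sums add log2 levels over differing numbers of genes and do not measure the amount of a cell type. The part of these cells in the snoRNA differences was not tested, and in such bulk samples fewer cells of a type and less RNA per cell cannot be told apart.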

How the data were processed

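Each of 2 samples gave 1 Affymetrix gene-level array. The authors deposited 1 value per feature and array, taken here as log2 from the range of 4.226 to 13.51, with medians of 4.658 (Lysm-Cre Ssu72fl/fl) and 4.646 (Lysm-Cre). MAS5 appears, with no role, in the submitters' processing notes; how the authors corrected, normalized or centred the values, and on which build, is not stated there. Symbols came from GEO's platform annotation: 23521 had 1 symbol, 1814 several and 8458 none. All 79 members matched the RefSeq gene table (GRCm38.p6) by Entrez identifier; hosts were taken from its spans, without the strand that the planned rule asked for, since the table has none. Where several genes contained a member (6 members), genes without a predicted (Gm) name and then the shortest were taken.

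Differences, medians of the 200 nearest features and counts at 2-fold were computed with pandas 2.3.3 and numpy 2.4.6 in Python 3.11.15, and tested on simulated arrays. There, changes in log2 units were put into features of stronger signal only. Of 100 features raised by 1.5 log2 units 53 passed 2-fold, and of 100 lowered by 1.5 log2 units 100 did, since the level-dependent shift adds to a change. With changes of 2.0 log2 units these were 97 and 100. At such signals an increase is thus missed more often than a decrease of the same size. No test between genotypes was possible. Named genes are members at the ends of the deposited and relative differences, the 10 strongest signals, all compared Scarna genes, Rnu3a, Snord118, Snord13 and Terc, members of hosts with at least 3, members with 2 features, hosts of these, and up to 3 genes at each end of each list. Snora34, Snora35, Snora73a, Snora73b, Snord43, Snord53, Snord88a and Snord92, the ribosomal protein split, the printed sequences and the pyrimidine run were chosen after values were seen. The members and lists were chosen with earlier results of these data known. Alternatives covered scaling, floor, features per gene, fold threshold and neighbours.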

Additional observations from a re-analysis of the deposited data

How the results depend on the processing

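The deposited scale decided the size of the shift. After quantile normalization the median difference was -0.065 over all members, -0.10 for C/D box, -0.050 for H/ACA box and -0.021 for Scarna genes, 47 of 76 members were lower, 0 were 2-fold lower, and the host median was -0.12. With the similar-signal median removed these were -0.050, -0.065, -0.051 and -0.015, with 42 lower and 0 at 2-fold. At 1.5-fold 17 members were lower, and at 3-fold 0; 0 were higher at either. Relative to protein-coding features the H/ACA median turned to 0.028. Median centring, floors at the 25th and 75th percentiles, no floor, the mean of a gene's features and every feature counted kept each median within 0.1 and each count within 1.5 times, and 100, 500 or (chosen after the data were seen) 20 neighbours kept the relative medians of all members, C/D box and H/ACA box within 0.1. A run chosen after the data were seen left features that name a snoRNA out of the 200 neighbours and counted repeated values once. Its relative medians were -0.060 for all members, -0.085 for C/D box and -0.060 for H/ACA box. With 20 neighbours the relative median turned to -0.22 for the members over a level of 10 and became -0.18 inside ribosomal protein genes. The microRNA median at level 6 or more turned to 0.24 relative to 200 and 0.27 relative to 20 neighbours. These, the host gaps without 2 hosts and the floored count beyond 2 robust SD were added after the data were seen. No paired analysis was possible because each genotype had 1 array; for the same reason no array could be left out. Signals near the floor limit the 14 members below a level of 6.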

Other observations

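Features that name a snoRNA or Scarna gene beside another symbol were left out of the members. There were 50, with 32 different value pairs, of which 30 were above the floor; 26 of these were lower and 4 higher on the array labelled Ssu72fl/fl, with a median of -0.24. Adding them to the members gave a median of -0.35. A further 8 genes that RefSeq types as snoRNA under other symbols were on the array, and the 5 above the floor were lower, with a median of -0.19. These features share the arrays with the members, and their part in host gene signal was not tested.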
